A study of Mus musculus with 10 samples.

Results

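Immunoglobulin chain genes were followed through RNA-seq libraries made from sorted Thy1.2+ cells of the mouse retina. They were chosen by symbol (*Ighv*, *Igkv* and *Iglv* V genes and the constant genes *Igha*, *Ighd*, *Ighe*, *Ighg1*, *Ighg2b*, *Ighg2c*, *Ighg3*, *Ighm*, *Igkc*, *Iglc1*, *Iglc2* and *Iglc3*) and by a mean of at least 1 TPM over the 6 libraries. TPM is a transcript's abundance per unit of its length, scaled to a fixed sum in each library. Of 53974 rows in the table, 358 carry such a symbol and 208 passed the floor. The 208 genes are 106 *Ighv*, 88 *Igkv*, 3 *Iglv*, 7 heavy chain constant genes, *Igkc* and 3 *Iglc* genes. Of the rest, 132 rows were listed at 0 in every library and 18 were above 0 but below the floor, among them *Ighe*, the IgE constant gene. The lowest means inside the floor were those of *Ighv1-79* and *Ighv1-47*, at 1.09 TPM each, and the highest outside it were those of *Ighv7-4* at 0.989 TPM and *Igkv9-129* at 0.885 TPM.

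An antibody is built from a pair of heavy and a pair of light chains. In a developing B cell, recombination joins 1 V segment of the heavy chain locus to D and J segments, and 1 V segment of the kappa or lambda locus to a J segment, so each B cell clone carries its own V genes. The constant gene sets the class: *Ighm* and *Ighd* are used before class switching, and *Ighg* and *Igha* genes after it. Plasma cells, the antibody-secreting end of the B lineage, make these RNAs at very high levels. *Jchain*, the joining chain that links IgA and IgM into polymers, is made with them. Which cells of the sorted samples made these transcripts was not tested.

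The mice were C57BL/6 animals with floxed *Arid1a* alleles (*Arid1a* fl/fl), 8 to 10 weeks old, and all had optic nerve crush (ONC). Mice labelled WT had received AAV2-GFP in the eye and mice labelled cKO had received AAV2-Cre, 2 weeks before ONC, and cells were sorted 3 days after it. The vectors were driven by a CMV promoter, which is not specific to a cell type, and each sample pooled 4 to 5 retinas. The paper gives a higher titer for AAV2-GFP than for AAV2-Cre, so label and vector titer cannot be told apart. RNA-seq covered 3 libraries per label and ATAC-seq, which maps open chromatin, covered 2 per label. The study calls its ATAC-seq samples biological replicates. Whether RNA-seq libraries of a label came from separate groups of mice is not given in the sources used here, so a p-value measures the spread between these libraries.

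*Arid1a*, the targeted gene, held 18.8, 11.7 and 14.1 TPM in WT replicates 1, 2 and 3 and 18.8, 27.9 and 25.0 TPM in cKO replicates 1, 2 and 3. Because its RNA was not lower in the libraries labelled cKO (log2 fold change 0.66, limma adjusted p = 0.279), directions below are given by label. The paper reports that ARID1A protein staining fell in Tuj1-positive retinal cells after AAV2-Cre. Gene-level TPM does not measure that protein. Markers of retinal ganglion cells (RGCs), the neurons the sort was meant to collect, were uneven. *Rbpms* and *Pou4f2*, which are the most specific to RGCs, were low, with *Rbpms* between 1.82 and 6.43 TPM and *Pou4f2* listed at 0 in 5 libraries. The 3 highest of the 13 RGC genes listed, which other cells also express, were *Thy1* at 51.9 to 129 TPM, *Isl1* at 51.9 to 104 TPM and *Nefl* at 5.47 to 20.6 TPM, and the list summed to between 148 and 262 TPM. TPM keeps no sequencing depth, so the reads behind each value are unknown and no interval for counting error is given.

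*Igkc*, the kappa light chain constant gene, was the most abundant transcript of the whole table in 2 of the 6 libraries. It held 54204, 8579 and 28864 TPM in WT replicates 1, 2 and 3, and 9206, 2248 and 8400 TPM in the cKO replicates. By rank among all genes it stood first, second and first under WT and 4th, 38th and 4th under cKO. All 208 genes together took 15.0%, 1.61% and 7.47% of the library's TPM under WT and 2.82%, 0.757% and 2.46% under cKO. The mean was 8.04% ± 6.73 (SD, n = 3) under WT and 2.01% ± 1.10 (SD, n = 3) under cKO. The labels overlapped, because WT replicate 2 lay below cKO replicates 1 and 3, and replicate 2 was the lowest library of each label. The ratio of the label means, 3.995, fell to 2.26 without WT replicate 1. It was 5.59 without WT replicate 2, and the labels then no longer overlapped.

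**Figure D1:**
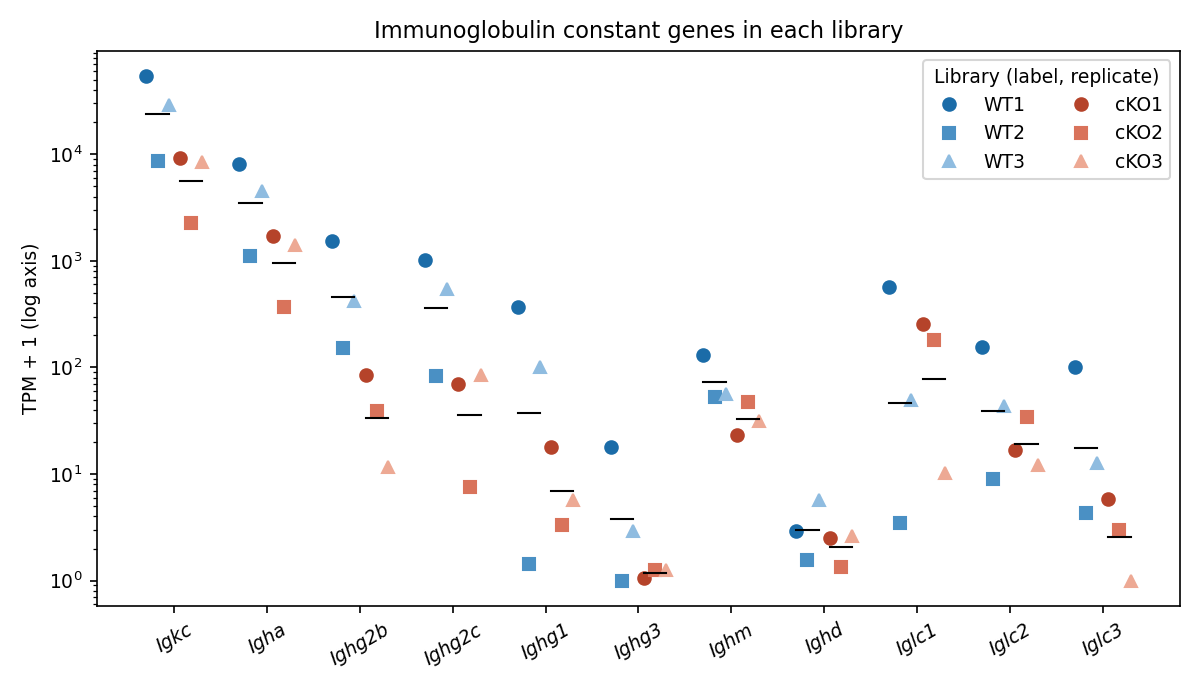
TPM + 1 on a log axis for the 11 constant genes in each of the 6 libraries, with a short line at the mean of the log values of each label (n = 3). *Igkc* and *Igha* stand above the rest in every library; for *Ighg2b* the 3 cKO libraries sit below the 3 WT libraries, while for *Iglc1* and *Igkc* the labels overlap.

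Of the 11 constant genes in the plot of TPM by library, 10 had a negative log2 fold change from WT to cKO, as had 39.2% of all genes tested, and the median of the 11 was -1.85. None passed an adjusted p of 0.05 from limma, which fits log2(TPM + 1) across all 17943 genes with a mean of at least 1 TPM and adjusts over them by the Benjamini-Hochberg method. Of all genes, 0% passed as lower and 0.00557%, or 1 gene, as higher. *Igkc* had a log2 fold change of -2.09 ± 0.80 (standard error, SE), with a limma adjusted p of 0.247.

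*Igha*, the constant gene of IgA, the antibody class of mucosal surfaces, was the most abundant heavy chain constant gene in every library. It held 8182, 1107 and 4532 TPM in the WT replicates and 1701, 366 and 1411 TPM in the cKO replicates. WT replicate 2 again lay below cKO replicates 1 and 3 (log2 fold change -1.85 ± 0.85 SE, limma adjusted p = 0.310).

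IgG is the main antibody class of serum, and 2 of its 4 constant genes, *Ighg2b* and *Ighg2c*, had the most negative log2 fold changes of the 11 constant genes. *Ighg2b* held 1537, 152 and 419 TPM in the WT replicates and 84.1, 38.2 and 10.5 TPM in the cKO replicates, with no overlap of the labels. Its log2 fold change was -3.78 ± 0.98 (SE), with a limma adjusted p of 0.153. *Ighg2c*, the IgG2c gene of the C57BL/6 strain, held 1023, 81.8 and 538 TPM against 69.1, 6.58 and 84.8 TPM, and overlapped by cKO replicate 3 alone (log2 fold change -3.32, adjusted p = 0.230 from limma). *Ighg1* ran from 0.430 TPM in WT replicate 2 to 369 TPM in WT replicate 1, a range that held all 3 cKO values (16.8, 2.302 and 4.74 TPM). *Ighg3* was listed at 0 in WT replicate 2 and reached 17.1 TPM in WT replicate 1 and 1.92 TPM in WT replicate 3, while the cKO libraries held 0.0521, 0.247 and 0.244 TPM.

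The genes used before class switching were low. *Ighm* held 130, 51.5 and 55.7 TPM in the WT replicates and 22.2, 46.6 and 30.4 TPM in the cKO replicates, without overlap (log2 fold change -1.16 ± 0.43 SE, limma adjusted p = 0.238). *Ighd* lay between 0.344 and 4.68 TPM. Among the constant genes *Ighm* and *Ighg2b* were those whose labels did not overlap, with all 3 cKO values below all 3 WT values, as in 6.99% of all genes. An annotated *Ighm* row does not separate membrane from secreted forms.

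Isotype usage is the share of each heavy chain constant gene in their summed TPM, which divides out the total of these genes in a library. A share can still go along with that total. *Igha* took 72.7%, 79.5% and 80.2% in the WT replicates and 89.8%, 79.5% and 91.4% in the cKO replicates. The 4 IgG genes together took 26.2%, 16.8% and 18.7% in the WT replicates and 8.97%, 10.3% and 6.50% in the cKO replicates. Every cKO library thus held a lower IgG share than every WT library. The means were 20.6% ± 4.94 (SD, n = 3) and 8.58% ± 1.92 (SD, n = 3). A share built from several members is given with no test, and 3 libraries against 3 cannot give an exact p under 0.1. Leaving out 1 library at a time, the ratio of the means lay between 2.07 and 2.66.

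**Figure D2:**
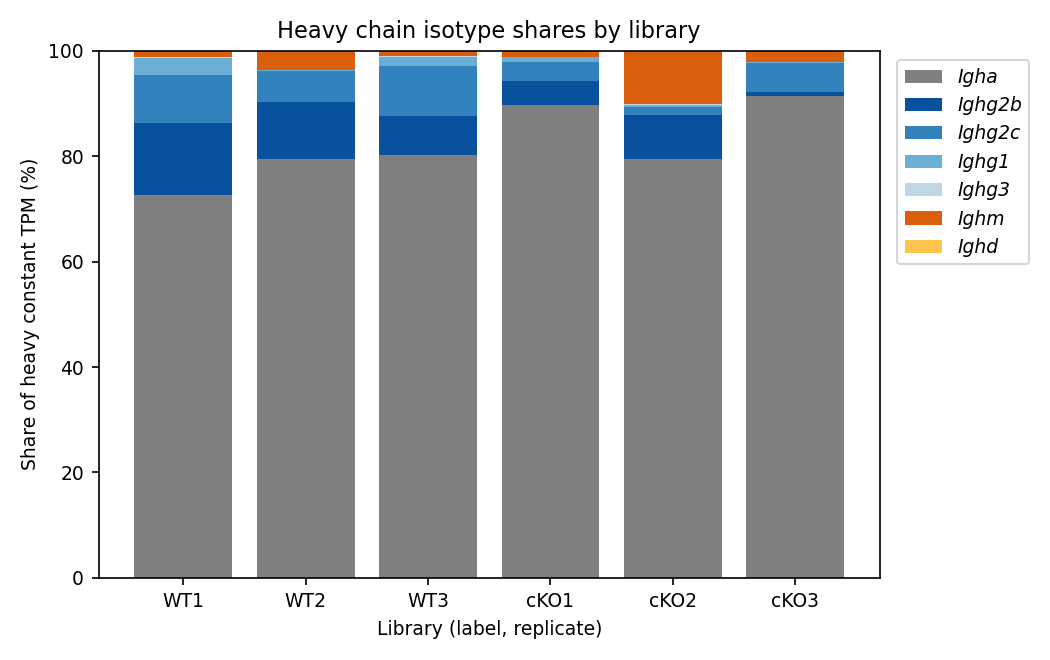
Stacked bars of the share of each constant gene in the summed TPM of the 7 heavy chain constant genes (%), 1 bar per library. *Igha* takes the largest share in all 6; the blue IgG shares add to between 16.8% and 26.2% in the WT libraries and between 6.50% and 10.3% in the cKO libraries.

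In summed TPM the IgG genes reached 2946, 234 and 1058 in the WT replicates and 170, 47.3 and 100 in the cKO replicates, a 13.3-fold ratio of the means. Without WT replicate 1 the ratio was 6.10, and without cKO replicate 1 it was 19.1. The stacked bars of isotype shares show that *Ighg2b* made up more of the IgG than *Ighg2c* in WT replicates 1 and 2 and in cKO replicates 1 and 2, and less in replicate 3 of both labels. In cKO replicate 3, *Ighg2b* took 0.681% of heavy chain constant TPM and *Ighg2c* took 5.49%. *Ighg2c* was the IgG gene whose share lay lower in all 3 cKO libraries than in all 3 WT libraries.

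*Ighm* took 1.15%, 3.70% and 0.986% of heavy chain constant TPM in the WT replicates and 1.17%, 10.1% and 1.97% in the cKO replicates. Its share was highest in replicate 2 of each label, the library with the least immunoglobulin RNA. The switched classes, IgA and IgG together, made up between 89.8% and 98.9% in all 6 libraries.

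Kappa light chains prevailed over lambda, as is usual in mice. *Igkc* took 98.5%, 99.8% and 99.6% of light chain constant TPM in the WT replicates and 97.1%, 91.2% and 99.8% in the cKO replicates. The lowest kappa share belonged to cKO replicate 2, the library with the least *Igkc*, where *Iglc1* held 180 TPM.

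*Iglc1*, the lambda 1 constant gene, was the constant gene with a positive log2 fold change (0.76 ± 1.97 SE, limma adjusted p = 0.868). It held 568, 2.47 and 48.2 TPM in the WT replicates and 254, 180 and 9.18 TPM in the cKO replicates. *Iglv1*, the V gene that is joined to *Iglc1*, followed it closely, at 576, 7.23 and 43.3 TPM against 300, 165 and 7.60 TPM. Both genes spread more than 10-fold within each label, and their sign turned negative without WT replicate 2, at -1.10 for *Iglc1* and -1.08 for *Iglv1*, and also without cKO replicate 1, at -0.10 and -0.66.

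*Iglv3* differed from *Iglv1*. It held 94.8, 11.2 and 104 TPM in the WT replicates and 4.68, 1.87 and 4.26 TPM in the cKO replicates, so the labels did not overlap (log2 fold change -3.50 ± 0.83 SE, limma adjusted p = 0.138). *Iglc2* held 154, 8.00 and 42.9 TPM against 15.96, 33.5 and 11.02 TPM, and *Iglc3* held 100, 3.35 and 11.6 TPM against 4.79, 2.002 and 0 TPM. *Iglv2* was listed at 0 in 3 libraries and reached at most 10.1 TPM. The share of *Iglv1* in *Iglv* TPM was 84.6%, 39.2% and 29.3% in the WT replicates and 97.9%, 94.1% and 64.1% in the cKO replicates.

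Among the 106 *Ighv* genes, a few took most of the signal in some libraries and many shared it in others. The number of *Ighv* genes at 1 TPM or more was 92, 43 and 88 in the WT replicates and 74, 56 and 52 in the cKO replicates. The inverse Simpson number, which counts how many equally used genes would give the same concentration, was 31.0, 6.80 and 17.7 in the WT replicates and 24.9, 10.5 and 16.1 in the cKO replicates. A share of 50% of the *Ighv* TPM was held by 11, 3 and 7 genes under WT and by 10, 4 and 6 genes under cKO. WT replicate 1 was the most even and WT replicate 2 the most concentrated library, with all 3 cKO libraries between them. The mean inverse Simpson number was 18.5 ± 12.1 (SD, n = 3) under WT and 17.2 ± 7.26 (SD, n = 3) under cKO, a difference smaller than the spread within either label.

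The 88 *Igkv* genes gave the same order at both ends. At 1 TPM or more there were 82, 36 and 72 in the WT replicates and 65, 55 and 50 in the cKO replicates. The inverse Simpson number was 33.4, 7.55 and 18.7 under WT and 24.6, 13.5 and 19.4 under cKO. The curves of cumulative share show WT replicate 2 rising fastest for both chains and WT replicate 1 slowest. The count of V genes present and the evenness were lowest in WT replicate 2, although cKO replicate 2 held less immunoglobulin RNA.

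**Figure D3:**
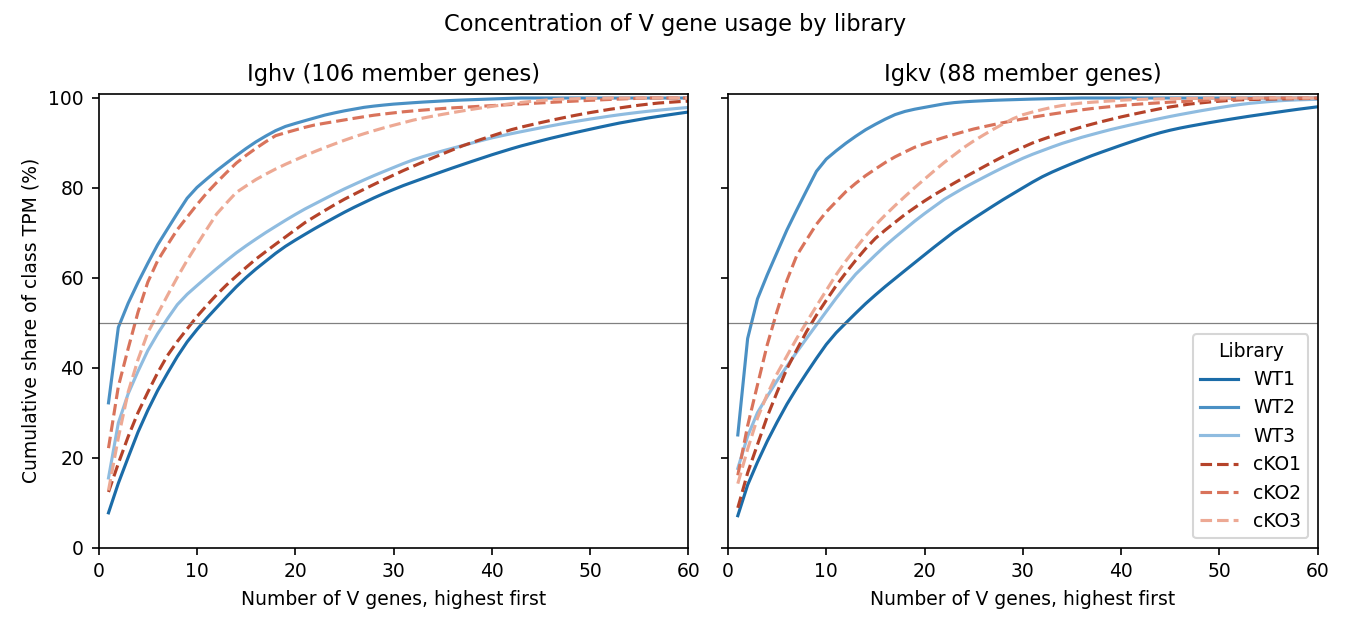
Cumulative share of the summed *Ighv* (left) and *Igkv* (right) TPM (%) held by the most used V genes, for the first 60 genes, with 1 line per library (solid WT, dashed cKO) and a grey line at 50%. WT replicate 2 reaches 50% with 3 genes in both panels, and WT replicate 1 needs 11 *Ighv* and 12 *Igkv* genes.

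*Ighv1-52* had the highest mean of the *Ighv* genes. It held 1374, 890 and 2125 TPM in the WT replicates and 360, 26.5 and 180 TPM in the cKO replicates, without overlap (log2 fold change -3.50 ± 0.90 SE, limma adjusted p = 0.150). Within the *Ighv* TPM it took 5.75%, 32.2% and 15.5% under WT and 6.34%, 1.34% and 3.78% under cKO. In TPM the labels were thus apart, whereas in share WT replicate 1 and cKO replicate 1 were close. In WT replicate 2, *Ighv1-61*, named after its values were seen, took a further 16.8%.

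*Igkv6-32* was the highest of the *Igkv* genes by mean, and it was lower in the cKO libraries both in TPM and in share. It held 4042, 843 and 4627 TPM in the WT replicates and 438, 55.1 and 278 TPM in the cKO replicates (log2 fold change -3.72 ± 0.92 SE, limma adjusted p = 0.147). It took 6.83%, 25.1% and 17.7% of *Igkv* TPM under WT and 4.07%, 2.24% and 2.81% under cKO. *Ighv1-52* and *Igkv6-32* were each the top gene of their chain in WT replicates 2 and 3. The files hold no pairing of heavy and light chains, so whether these came from the same cells cannot be told.

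*Ighv9-3* went the other way in share. It held 1570, 113 and 633 TPM in the WT replicates and 706, 166 and 608 TPM in the cKO replicates (log2 fold change -0.22 ± 0.99 SE, limma adjusted p = 0.928). Its share of *Ighv* TPM was 6.57%, 4.10% and 4.62% under WT and 12.4%, 8.44% and 12.8% under cKO, so each cKO share was above each WT share. It was the top *Ighv* gene in cKO replicates 1 and 3.

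**Figure D4:**
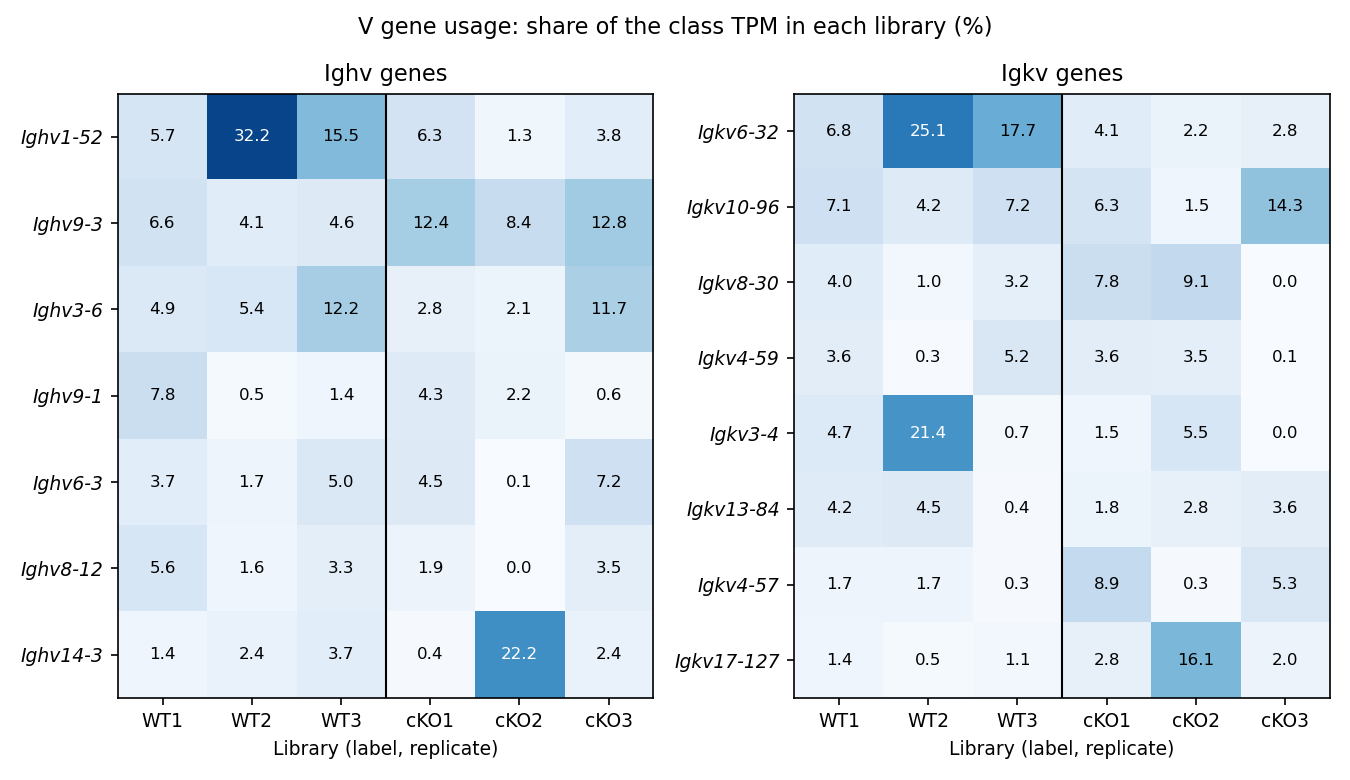
Share (%) of each library's *Ighv* (left) or *Igkv* (right) TPM taken by the V genes named by rule, with darker blue for a higher share and a line between the WT and cKO libraries. *Ighv1-52* takes 32.2% and *Igkv6-32* 25.1% in WT replicate 2, and *Ighv14-3* takes 22.2% and *Igkv17-127* 16.1% in cKO replicate 2.

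The leading V genes differed between most libraries and were shared by some, as the grid of V gene shares shows. *Ighv9-1* led WT replicate 1 with 7.78% and held 1861 TPM there, against 13.6 to 245 TPM in the other libraries. *Ighv14-3* led cKO replicate 2 with 22.2% and took no more than 3.74% elsewhere. *Ighv3-6* took 12.2% in WT replicate 3 and 11.7% in cKO replicate 3, and 5.37% or less in the others. *Ighv6-3*, also among the highest by mean, took 0.118% of *Ighv* TPM in cKO replicate 2 and 7.20% in cKO replicate 3, and *Ighv8-12* was listed at 0 in cKO replicate 2 and took 3.46% in cKO replicate 3.

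*Igkv10-96* led WT replicate 1 with 7.14% and cKO replicate 3 with 14.3%. *Igkv3-4* took 21.4% in WT replicate 2 and was listed at 0 in cKO replicate 3. *Igkv8-30* was also listed at 0 in cKO replicate 3 but held 837 TPM in cKO replicate 1. *Igkv4-57* led cKO replicate 1 with 8.89%, and *Igkv17-127* led cKO replicate 2 with 16.1%. *Igkv4-59* ran from 5.07 TPM in cKO replicate 3 to 2112 TPM in WT replicate 1, and *Igkv13-84* took between 0.400% and 4.45% of *Igkv* TPM. Salmon assigns reads among V genes of near-identical sequence, so the value of a single V gene is less certain than that of its family.

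Few V genes separated the labels in share. Of the 106 *Ighv* genes, 3 (2.83%) had a lower share in all 3 cKO libraries and 4 (3.77%) a higher share. Of the 88 *Igkv* genes, 4 (4.55%) were lower and 4 (4.55%) higher. *Igkv6-32* and *Ighv9-3* were among these, and so were *Igkv8-21*, *Ighv1-58* and *Ighv1-22* on the lower side.

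By family, *Ighv1*, the largest with 61 of the 106 genes, took 57.2% ± 13.5 of *Ighv* TPM under WT and 42.8% ± 10.8 under cKO (SD, n = 3), with overlap. The *Ighv9* family took 8.58% ± 5.52 and 16.9% ± 4.37 (SD, n = 3), also with overlap. *Ighv6* was 1 of 13 *Ighv* families without overlap, or 7.69%, and took 4.21%, 1.69% and 5.06% in the WT replicates and 8.49%, 8.32% and 7.20% in the cKO replicates. Among 17 *Igkv* families, *Igkv2* (1 of 17, or 5.88%) lay higher in all 3 cKO libraries, at 2.52% to 4.14% against 0.180% to 1.66%, and *Igkv19* (again 5.88%), which has 1 member, lay lower. *Igkv4*, the largest, took 14.3% ± 8.15 under WT and 20.9% ± 10.6 under cKO (SD, n = 3).

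Pairs of libraries shared between 21.0% and 55.2% of their *Ighv* usage and between 25.8% and 59.3% of their *Igkv* usage, as the sum of the smaller of both shares of each gene. For both chains the closest pair was WT replicates 1 and 3. For *Ighv*, pairs of WT libraries shared 37.2% to 55.2%, pairs of cKO libraries 30.9% to 48.8%, and pairs across labels 21.0% to 52.3%. For *Igkv* the ranges were 36.8% to 59.3%, 25.8% to 49.9% and 26.5% to 58.6%. For both chains the ranges within and across labels overlapped. Of the 43 *Ighv* genes present in WT replicate 2, 41 were present in WT replicate 1, which is 95.3% of the genes of WT replicate 2 and 44.6% of those of WT replicate 1.

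All 208 genes had a position in RefSeq on GRCm38.p6. The heavy chain locus lies at chr12:113256204-116009954, the kappa locus at chr6:67555636-70726754 and the lambda locus at chr16:19061752-19260844. *Igkc* lies at chr6:70726435-70726754, *Igha* at chr12:113256204-113260236, *Ighv1-52* at chr12:115145487-115145780 and *Igkv6-32* at chr6:70074024-70074584. RefSeq lists 12 of the 106 *Ighv* genes and 4 of the 88 *Igkv* genes as pseudogene segments. They took between 1.18% and 7.29% of *Ighv* TPM and between 0.0298% and 1.43% of *Igkv* TPM. The 53 *Ighv* genes nearer to the J segments took between 26.5% of *Ighv* TPM, in WT replicate 2, and 69.3%, in cKO replicate 2, and the 44 nearer *Igkv* genes took between 42.4% and 67.5%. In both chains these extremes fell in the replicate 2 libraries.

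Across the 208 genes, 163 had a negative log2 fold change (78.4%, against 39.2% of all 17943 genes tested), and the median was -1.59 against 0.16. Without WT replicate 1 the median was -0.67, and without WT replicate 2 it was -2.90. None of the 208 passed an adjusted p of 0.05 in either direction in limma. At an unadjusted p under 0.05, 27 (13.0%) were lower, against 6.26% of all genes, and 0 were higher, against 11.4%. The count of 27 was 10 without WT replicate 1, 16 without WT replicate 3 and 73 without WT replicate 2. In 16 genes (7.69%) all 3 cKO libraries lay below all 3 WT libraries, which is near the 6.99% of all genes. Many members pass the floor through the libraries in which they are high, so these counts describe the members and were given no test of their own.

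Negative fold changes prevailed among the *Ighv*, *Igkv* and constant genes, whereas 1 of the 3 *Iglv* genes was negative (median 0.34). Of all genes tested, 39.2% were negative and 6.26% were lower at an unadjusted p under 0.05. Of the *Ighv* genes, 86 of 106 were negative (median -1.45), with 10 (9.43%) at an unadjusted p under 0.05. Of the *Igkv* genes, 66 of 88 were negative (median -1.69), with 12 (13.6%). Of the 162 members with 1 TPM or more in at least 3 libraries, 132 were negative (median -1.75), with 20 (12.3%). Leaving out 1 library at a time, the log2 fold change of *Igkc* ran from -2.82 (without WT replicate 2) to -1.43 (without cKO replicate 2), and that of *Igha* from -2.67 to -1.15 for the same libraries. It ran from -4.57 (without WT replicate 2) to -2.91 (without WT replicate 1) for *Ighg2b*. For *Ighv1-52* it ran from -4.29 (without cKO replicate 1) to -2.43 (without cKO replicate 2), and for *Igkv6-32* from -4.51 (without WT replicate 2) to -2.84 (without cKO replicate 2). All stayed negative. Of the 208 members, 46 held 1 TPM or more in all 6 libraries, and 75 were listed at 0 in 3 or more.

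The 5 members with the lowest p were *Ighv1-58*, *Igkv8-21*, *Iglv3*, *Igkv6-32* and *Ighv1-22*. *Ighv1-58* held 18.1, 2.15 and 15.0 TPM in the WT replicates and was listed at 0 in all 3 cKO libraries, so it passed the floor through the WT libraries alone, and its values are a description. *Igkv8-21* held 769, 61.5 and 47.6 TPM in the WT replicates and 7.63, 0 and 0 TPM in the cKO replicates (adjusted p = 0.130 from limma). *Ighv1-22* held 248, 25.9 and 60.3 TPM against 0, 2.41 and 12.0 TPM (adjusted p = 0.147 from limma). None of the 5 passed the adjusted threshold, and since they were picked by their p, their lack of overlap adds nothing to it.

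*Jchain* held 5877, 866 and 3057 TPM in the WT replicates and 925, 328 and 908 TPM in the cKO replicates. The ratio of *Igkc* to *Jchain* was 9.22, 9.90 and 9.44 under WT and 9.95, 6.85 and 9.26 under cKO. It thus varied 1.45-fold over libraries in which *Igkc* itself varied 24.1-fold. *Igha* to *Jchain* ratios lay between 1.12 and 1.84. The plot of *Igkc* and *Igha* against *Jchain* puts WT replicate 2 beside cKO replicates 1 and 3.

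**Figure D5:**
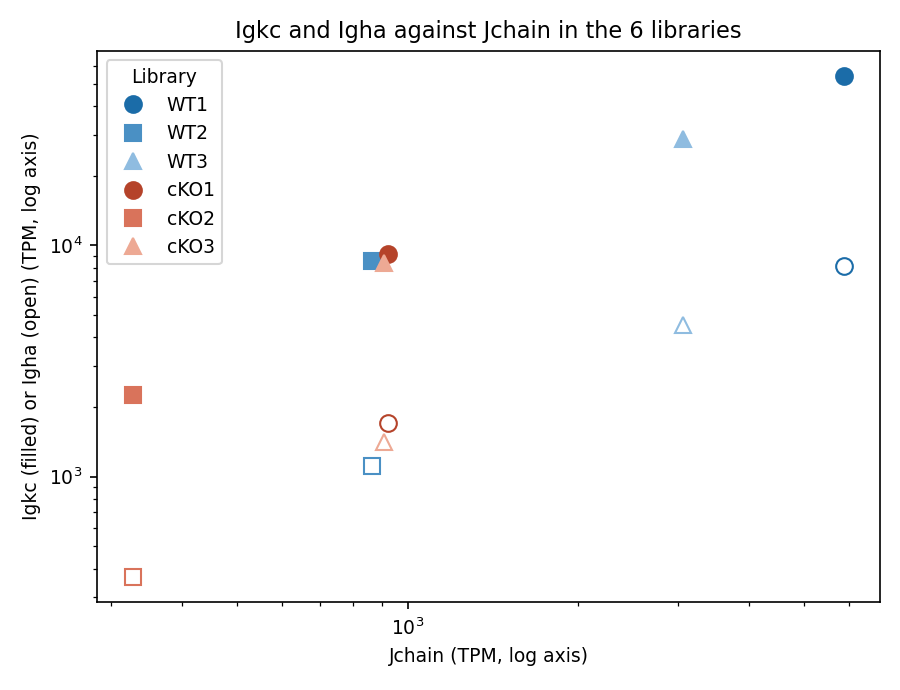
*Igkc* (filled) and *Igha* (open) TPM against *Jchain* TPM, both on log axes, with 1 marker per library for each gene (circle, square and triangle for replicates 1, 2 and 3; blue WT, red cKO). WT replicate 2 lies with cKO replicates 1 and 3, at 866 to 925 TPM of *Jchain*.

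Other genes of plasma cells and B cells moved less evenly with *Igkc*. *Mzb1*, a chaperone cofactor of antibody secretion, held 125, 17.0 and 82.3 TPM under WT and 16.1, 3.81 and 17.4 TPM under cKO, and the ratio of *Igkc* to *Mzb1* varied 1.68-fold. *Xbp1*, a regulator of secretory capacity that many cell types express, lay between 213 and 420 TPM, and *Igkc* to *Xbp1* ratios ran from 10.5 to 160. *Cd79a*, a signalling chain of the B cell receptor, held 39.8, 7.28 and 29.96 TPM under WT and 4.25, 3.66 and 5.47 TPM under cKO, without overlap.

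By list, all 14 plasma cell genes and all 17 B cell surface genes tested had a negative log2 fold change, against 39.2% of all genes, and 9 and 10 of them had an unadjusted p under 0.05, against 6.26% of all genes, with none past the adjusted threshold in limma. Among the plasma cell genes *Prdm1* and *Ssr4* were almost level, with log2 fold changes of -0.037 and -0.029. The summed level of the plasma cell list ran from 1537 to 6682 TPM under WT and from 724 to 1440 TPM under cKO, and that of the B cell surface list from 267 to 431 TPM and from 102 to 149 TPM. *Jchain* alone held 5877 TPM of the highest plasma cell sum, in WT replicate 1, and 328 TPM of the lowest, in cKO replicate 2. *Pax5*, the B cell identity factor, had means of 0.107 TPM under WT and 0.131 TPM under cKO.

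Of the B cell transcription factor list, 3 of 8 tested genes were lower at an unadjusted p under 0.05, and 1, *Ebf1*, was higher. *Ebf1* held 25.8, 15.3 and 20.9 TPM in the WT replicates and 43.5, 51.8 and 42.3 TPM in the cKO replicates (limma adjusted p = 0.133). All 3 cKO values lay above all 3 WT values, as in 18.1% of all genes. The list also holds *Cd74*, which is not a transcription factor and was 1 of the 3 lower genes. Of the recombination and diversification list, 1 of 12 (8.33%) was lower and 0 were higher, near the 6.26% of all genes that were lower. *Rag1* and *Rag2*, the recombinase that joins V segments, stayed under 1 TPM in every library. Of the surrogate light chain list, 0 of 4 genes reached the floor. Lower at an unadjusted p under 0.05 were also 1 of 6 germinal centre genes (16.7%) and 3 of 9 B1 and marginal zone genes (with 1 higher). So were 2 of 8 Fc receptor and transport genes and 4 of 8 genes of factors that attract or sustain B cells. The 3 lower B1 and marginal zone genes, named after their values were seen, were *Cd5*, *Spn* and *Ptpn22*. *Cd5* is also on the T cell list, and which cells expressed these genes was not tested.

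No gene of the lists of other cell types passed the adjusted threshold in limma, and the counts below are at an unadjusted p under 0.05, where 6.26% of all genes were lower and 11.4% higher. Of the T cell list, 13 of 15 genes were lower and 1, *Thy1*, the target of the sort, was higher, with a summed level of 1236 to 3485 TPM under WT and 390 to 810 TPM under cKO. Of the myeloid list, 6 of 11 were lower, at 2295 to 3641 TPM and 969 to 1342 TPM. Erythrocyte genes were lower in 0 of 5 cases, endothelial and pericyte genes in 1 of 6 and Mueller glia genes in 3 of 7. Rod and cone genes were higher in 11 of 11 cases, at 14869 to 20031 TPM under WT and 29022 to 54745 TPM under cKO, and RGC genes in 3 of 10. The part of these cell types in the immunoglobulin values was not tested. In these bulk samples, fewer cells of a type and less RNA per cell cannot be told apart.

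The V gene signal per unit of constant gene signal differed between libraries. The summed *Ighv* TPM over the summed heavy chain constant TPM was 2.12, 1.98 and 2.42 in the WT replicates and 3.0, 4.28 and 3.08 in the cKO replicates, with every cKO ratio above every WT ratio. The summed *Igkv* TPM over *Igkc* TPM was 1.09, 0.391 and 0.908 under WT and 1.17, 1.10 and 1.18 under cKO. Here also every cKO ratio was above every WT ratio, but cKO replicate 2 (1.096) was barely above WT replicate 1 (1.091). WT replicate 2 stood far below the other 5 libraries. These sums depend on how reads were assigned to annotated V genes.

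ATAC-seq peaks in the 3 immunoglobulin loci were few. Peaks from the first to the last gene of the loci numbered 117 in WT replicate 1, 51 in WT replicate 2, 34 in cKO replicate 1 and 62 in cKO replicate 2. As a share of all peaks of the library these were 0.153% (Wilson 95% interval 0.128% to 0.183%), 0.121% (0.0918% to 0.159%), 0.0608% (0.0435% to 0.0850%) and 0.0908% (0.0708% to 0.116%). Both cKO shares lay below both WT shares, although the intervals of WT replicate 2 and cKO replicate 2 overlap, and 2 libraries against 2 cannot reach a p under 0.05 in an exact permutation test. By locus, the shares were apart in this direction at the heavy chain locus (0.0680% and 0.0899% against 0.0322% and 0.0395%). At the kappa locus they overlapped (0.0823% and 0.0284% against 0.0233% and 0.0439%), and at the lambda locus, with 1 to 5 peaks per library, both cKO shares were above both WT shares. These intervals take in counting error alone. Within 1000 bp of a member gene there were 14, 8, 2 and 8 peaks in the same order. *Igha*, *Ighd*, *Ighv1-47* and *Ighv1-67*, named after their values were seen, had one in both WT libraries, and 0 of 208 genes had one in both cKO libraries. Only 2 members had one in cKO replicate 1 and 8 in cKO replicate 2, so few could be shared. The share over all genes is not given here, so nothing is drawn from these counts.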

How the data were processed

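RNA-seq of Thy1.2-sorted retinal cells (3 libraries labelled WT, 3 labelled cKO) and ATAC-seq (2 and 2) were used. The authors trimmed the reads with Trimmomatic, quantified them with Salmon 1.0.0 on the GENCODE mouse annotation (GRCm38), passed them through tximport to gene level and deposited TPM, with no counts. Salmon shares reads between similar V genes. The authors aligned ATAC-seq reads with Bowtie2 2.3.5.1 and deposited peak positions per library, which the submitters' processing notes tie to MACS2 2.2.5. The authors' tables of comparisons (fold changes and p-values) were not used.

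Groups came from the labels. Genes with a mean of at least 1 TPM were compared with limma 3.58.1 (trend) in R 4.3.3 on log2(TPM + 1), which understates the change of low genes, with Benjamini-Hochberg adjustment over all genes tested and a threshold of 0.05, two-sided. Shares, sums and evenness were given no test. The script was tested on simulated data. Alternatives were a pseudocount of 0.1, no filter, 1 TPM in at least 3 libraries, a mean of 5 TPM, scaling by the median of ratios, a replicate block, no trend, no floor on members and leaving out each library. Rescaling without immunoglobulin rows, and leaving out libraries for the summed TPM, were added after the data were seen. Depth is unknown. Constant genes, the 6 highest V genes of each chain, each library's top V gene and the 5 lowest p-values are named, with others said to be chosen later. Members and lists were chosen with earlier results of these data known. Positions are from RefSeq (GRCm38.p6), counted from 1. Other steps used Python 3.11.15, numpy 2.4.6, pandas 2.3.3, scipy 1.17.1 and matplotlib 3.10.9. Values of some listed marker genes are not reported here.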

Additional observations from a re-analysis of the deposited data

How the results depend on the processing

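Same-numbered libraries deviated together at r = 0.282, 0.09 and 0.384 across genes for replicates 1, 2 and 3, and each WT library correlated best with its own number, but cKO replicate 2 correlated better with WT replicate 1 (0.184), so the numbers were not taken to pair the libraries. With a replicate block, 60 members were lower at an unadjusted p under 0.05, 2 were higher, and 1 member, the 1 gene lower among all tested, passed the adjusted threshold in limma. Without the trend, 2 genes were higher at the adjusted threshold instead of 1.

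Leaving out 1 library at a time, members lower at an unadjusted p under 0.05 numbered 10 to 73 and members higher 0 to 2, and members lower at the adjusted threshold numbered 0 to 5, the 5 without WT replicate 2. Genes lower at the adjusted threshold numbered 0 to 6 and genes higher 0 to 2. The sign turned for *Ighv9-3* (-1.26 to 0.63) without WT replicate 1 (0.63) and cKO replicate 2 (0.44), for *Iglc1* (-1.10 to 2.57) without WT replicate 2 (-1.10) and cKO replicate 1 (-0.10), and for *Iglv1* (-1.08 to 1.98) without WT replicate 2 (-1.08), cKO replicate 1 (-0.66) and cKO replicate 2 (-0.22). Such fits assume that a label with 2 libraries varies like the other.

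Scaling by the median of ratios moved the median over all genes tested from 0.16 to 0.01 on the log2 scale and that of the members from -1.59 to -1.68. Rescaling without immunoglobulin rows moved them to 0.08 and -1.65. At 5 TPM or more, the mean number of V genes present under cKO was 45.7 for *Ighv* and 45.7 for *Igkv*, against 60.7 and 56.7 at 1 TPM. Peaks within 1000 bp of a member, instead of the whole loci, numbered 14, 8, 2 and 8 in WT replicates 1 and 2 and cKO replicates 1 and 2. The other 146 values of main results and 242 values of single genes kept their direction and side of the threshold, or moved by less than the spread between replicates. The cause of these changes was not tested. Depth limits V genes of low TPM by an amount that TPM does not show, and the search for the octamer motif in V gene promoters was not run.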
